A study of Mus musculus with 7 samples.

Results

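The genes described here belong to IgA secretion and to plasma cells: Jchain, Mzb1, Irf4, Eaf2, Tnfrsf17, Derl3, Sdc1, Prdm1 and Pim2, which plasma cells express, and Pigr, which epithelial cells express to carry IgA into the gut lumen. They were chosen by name, and every probe set that the platform annotation assigns to one of them alone was used. All 10 genes were found among the 18193 genes of the arrays, on 15 of 34945 single-gene probe sets, and all 10 passed the filter on low values. Immunoglobulin chains are not included. The samples are labelled terminal ileum, the last stretch of small intestine, from male C57BL6J mice aged 8 weeks, each array holding the RNA of a separate mouse as far as the labels say. The penicillin group was 4 mice given penicillin at the low dose of 6.7 mg/L since birth, and the control group was 3 mice without antibiotic. Both groups were weaned to chow at 4 weeks and ate food with 45% of its calories as fat after 6 weeks. Cage and litter were not among the details used here, so neither can be told apart from the treatment.

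IgA is the main antibody of the gut. Plasma cells in the lamina propria, the tissue beneath the epithelium, assemble it into dimers around the joining chain, and the polymeric immunoglobulin receptor encoded by Pigr takes the dimers up at the base of epithelial cells and releases them at the luminal face. Gut microbes are known to drive the formation of IgA plasma cells and to raise Pigr in the epithelium, and the comparison here asks how both sides of this route differed in mice given low-dose penicillin.

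Levels are the deposited log2 expression values, on which 1 unit is a 2-fold difference, and a level can be compared between mice but not between genes. Array values ran between 2.5 and 14.75, so Jchain and Pigr, with levels above 11.5, lay in the upper part of the scale, where differences can be compressed. The growth protocol in the labels names livers as the organ collected, which goes against the labelled tissue. Of the ileal bile acid genes, Fabp6 and Slc10a2 had means at percentiles 99.98 and 93.8 of all genes, and of the hepatocyte genes, Alb, Serpina1c and Cyp2e1 had means at percentiles 49.1, 49.8 and 95.1; these 5 were chosen after seeing the data. The ileal carrier Fabp6 was at 14.50 ± 0.12 in penicillin mice and 14.41 ± 0.11 in control mice (SD, n = 4 and 3). Some other ileal genes differed more. Slc10a2 was at 11.25 to 11.44 in penicillin mice and 9.91 to 10.99 in control mice, with groups apart. Fgf15 differed by -1.14 ± 0.57 (SE), with overlapping groups. It was at 6.98 to 8.73 in penicillin mice and at 8.93, 9.45 and 7.49 in control replicates 1 to 3, so only control replicate 3 overlapped. Of 7 terminal ileum markers 2 had lower and 5 higher values, with a median of 0.10. The direction turned without control replicate 3, where 5 of the 7 had lower values and the median was -0.05. Whether the stretch sampled differed between the groups was not tested. Control replicate 3 was unlike the remaining 6 arrays. Its score on principal component 1, which held 48.0% of the variance, was -29.98, against -2.90 to 17.61 for the rest, and the colonocyte gene Car1 was at 14.10 there and between 5.11 and 10.82 elsewhere. Values without that array are given above for the terminal ileum markers and below for other results that turn on it. With 4 against 3 mice there are 35 splits of the arrays. An exact permutation test of a single gene, with its one-sided p doubled, cannot go below p = 0.0571. The tests given are those of limma, a linear model with a spread shared across 13644 genes, called at a Benjamini-Hochberg adjusted p under 0.05.

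Of the 9 plasma cell genes, 8 had lower mean values in penicillin than in control mice and Sdc1 a higher one, and none passed the test over all genes. Jchain was 2.005-fold, Mzb1 1.98-fold, Irf4 1.93-fold and Tnfrsf17 1.67-fold lower, while epithelial Pigr was 1.27-fold lower. In 6 of the 10 genes (Jchain, Mzb1, Irf4, Tnfrsf17, Eaf2 and Pigr) every penicillin mouse was below every control mouse, and in 1, Sdc1, every penicillin mouse was above. Over all genes tested, the share whose groups lay apart in this way was 6.05% in the lower direction and 4.29% in the higher. No gene of the set passed the threshold of limma over all genes, where 0.088% of genes were called lower and 0.00733% higher. At an unadjusted p under 0.05 in limma, 6 of the 10 were lower and 1 was higher, against 6.35% and 4.37% of all genes. With array quality weights, limma called 5 of the 10 lower at an adjusted p between 0.0169 and 0.0210, where 3.58% of all genes were called lower. The estimate of the weights stopped before it converged. Control replicates 1 to 3 had weights of 4.54, 0.464 and 0.249, so the control side of this fit rested mainly on control replicate 1. Without control replicate 3 the same counts of separated groups, 6 lower and 1 higher, were found, over a background of 11.2% and 8.74%. In whole tissue, fewer plasma cells and less RNA in each of them cannot be told apart.

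Jchain encodes the joining chain that links IgA monomers and is needed for binding to the polymeric immunoglobulin receptor. Its level was 11.90, 12.16, 11.55 and 12.20 in penicillin replicates 1 to 4, against 12.93, 12.93 and 13.00 in control replicates 1 to 3. The control mice lay close together, whereas the penicillin mice spread over a wider range and all lay lower. The difference was -1.004 ± 0.15 (SE; limma adjusted p = 0.0891), with a 95% interval of -1.36 to -0.65. Mzb1 encodes an endoplasmic reticulum protein of B cells and plasma cells that helps immunoglobulin to be assembled and secreted. It was at 7.65, 7.68, 7.25 and 7.85 in penicillin mice, against 8.42, 8.70 and 8.66 in control mice. The groups again lay apart, and the difference was -0.99 ± 0.14 (SE; limma adjusted p = 0.0862).

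**Figure D1:**
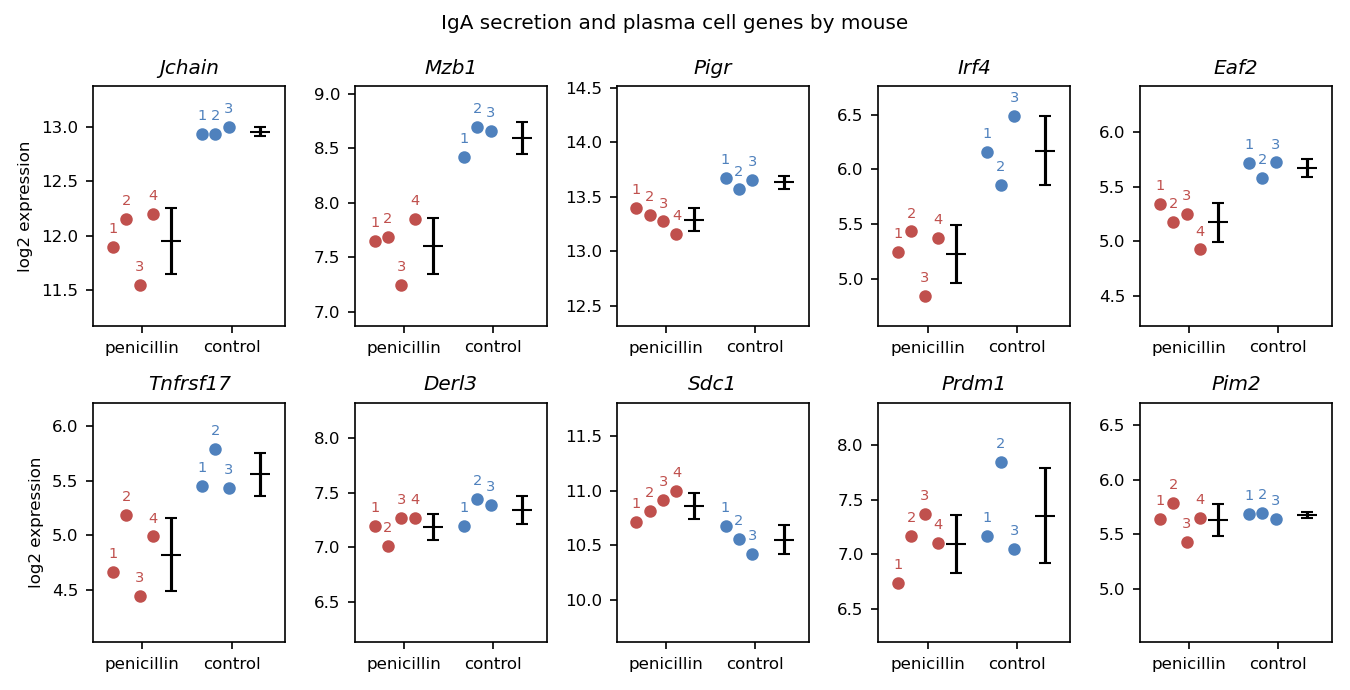
Log2 expression of the 10 genes in each mouse, with a panel per gene and an axis of the same length in every panel. Numbered points are replicates, red for penicillin (n = 4) and blue for control (n = 3), and black bars give mean and SD; Jchain, Mzb1, Irf4, Tnfrsf17, Eaf2 and Pigr lie lower in every penicillin mouse, Sdc1 lies higher, and Derl3, Prdm1 and Pim2 overlap.

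Irf4 encodes a transcription factor that plasma cells need to form and to persist. On the probe set used for the gene it was at 5.25, 5.43, 4.84 and 5.37 in penicillin mice, against 6.16, 5.86 and 6.49 in control mice, a difference of -0.95 ± 0.18 (SE; limma adjusted p = 0.152). Control replicate 3 was the highest of all, and without it the difference was -0.79 ± 0.18 (SE; limma adjusted p = 0.199). The other probe set of Irf4 had a smaller difference of the same sign: it was at 4.86, 4.96, 4.64 and 4.76 in penicillin mice and at 4.99, 5.005 and 4.99 in control mice. With the mean of the gene's probe sets the difference of Irf4 was -0.57. On the probe set used, the mean lay low on the scale, at percentile 16.2 of the genes tested.

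Tnfrsf17 encodes BCMA, the receptor through which APRIL and BAFF keep plasma cells alive. Its level was 4.66, 5.19, 4.45 and 4.99 in penicillin mice, against 5.46, 5.79 and 5.43 in control mice. These values lie low on the scale, the filter being at 4.588, so the fold may be understated. The difference was -0.74 ± 0.18 (SE; limma adjusted p = 0.268). Eaf2 encodes a partner of the transcription elongation factor ELL and is expressed in germinal centre B cells and plasma cells. It was at 5.34, 5.18, 5.25 and 4.92 in penicillin mice and at 5.72, 5.58 and 5.72 in control mice, with the lowest value in penicillin replicate 4. Its difference was -0.50 ± 0.10 (SE; limma adjusted p = 0.167), and its mean lay at percentile 12.9 of the genes tested, also low on the scale.

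In other plasma cell genes the groups overlapped. Derl3, a component of the degradation of misfolded proteins at the endoplasmic reticulum, was at 7.01 to 7.27 in penicillin mice and 7.199 to 7.45 in control mice, with overlapping groups and a difference of -0.16 ± 0.09 (SE, 95% interval -0.36 to 0.05), which was -0.098 without penicillin replicate 2. Prdm1 encodes Blimp-1, the repressor that ends the B cell programme in plasma cells and that T cells also express. It was at 6.74 to 7.37 in penicillin mice and 7.05 to 7.85 in control mice. Only control replicate 2 lay above all penicillin mice, and the difference of -0.26 ± 0.22 (SE, 95% interval -0.76 to 0.24) was -0.01 without that mouse and -0.41 without control replicate 3. Pim2, a survival kinase of lymphocytes, was at 5.43 to 5.78 in penicillin mice and 5.64 to 5.69 in control mice, a difference of -0.05 ± 0.08 (SE, 95% interval -0.24 to 0.14). None of these 3 passed in limma, with adjusted p between 0.534 and 0.825.

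Sdc1 encodes syndecan-1, known as CD138 on plasma cells and also expressed by epithelial cells. On the probe set used for the gene it was at 10.71, 10.82, 10.91 and 11.00 in penicillin mice, against 10.68, 10.56 and 10.42 in control mice. It thus ran opposite to Jchain, with a difference of 0.31 ± 0.09 (SE; limma adjusted p = 0.332). All 4 probe sets of the gene had higher means in penicillin mice, by 0.14 to 0.39. In all 4 the lowest of the 7 arrays was control replicate 3, and without that array the differences were 0.24 for the probe set used and 0.27, 0.14 and -0.015 for the other 3.

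Pigr is represented by a pair of probe sets. The one used was at 13.40, 13.34, 13.27 and 13.16 in penicillin mice, against 13.68, 13.57 and 13.66 in control mice. Every penicillin mouse was below every control mouse, with a difference of -0.34 ± 0.07 (SE; limma adjusted p = 0.168). The other was at 13.15, 13.13, 12.91 and 12.79 in penicillin mice and at 13.42, 13.45 and 13.37 in control mice, and differed by -0.42 ± 0.09 (SE; adjusted p = 0.299 in limma over all probe sets). General epithelial genes did not share this direction. Of 12 epithelial markers 11 had higher values in penicillin mice, with a median difference of 0.08, and Epcam, the epithelial adhesion molecule, was at 14.22 ± 0.03 in penicillin mice and 14.13 ± 0.08 in control mice (SD, n = 4 and 3). Their summed level was 16.97 to 17.00 in penicillin mice and 16.81 to 16.96 in control mice (log2 of the sum). Without control replicate 3, 3 of the 12 had lower values and the median was 0.04. The exception among all 7 arrays was Elf3, an epithelial transcription factor, which differed by -0.42 ± 0.06 (SE; limma adjusted p = 0.0896). When the value of Epcam on the same array was subtracted from every gene, a comparison chosen after seeing the data, Pigr differed by -0.43 ± 0.09 (SE; limma adjusted p = 0.126), where 0.279% of genes were called lower than Epcam. It was called with the probe sets of each gene averaged (-0.54, limma adjusted p = 0.0347) and in none of the other 16 alternatives (limma adjusted p 0.0870 to 0.816).

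The question of whether plasma cell genes and Pigr differed by the same amount was put by subtracting the Pigr value of the same array from every gene and fitting all genes again. Against Pigr, Jchain differed by -0.66 ± 0.16 (SE; limma adjusted p = 0.00995, 95% interval -1.003 to -0.32). Mzb1 differed by -0.65 ± 0.15 (SE; limma adjusted p = 0.0101) and Irf4 by -0.61 ± 0.16 (SE; limma adjusted p = 0.0123). These 3 of 9 plasma cell genes were called lower than Pigr, against 0.476% of all genes. Sdc1, at 0.65 ± 0.13, and Pim2, at 0.29 ± 0.11 (SE), were called higher than Pigr (limma adjusted p = 0.00963 and 0.0318), and so were 68.9% of all genes, Pigr itself having lower values. For Tnfrsf17 the difference from Pigr was -0.40, with a 95% interval from -0.79 to -0.003 (limma adjusted p = 0.0650), and for Eaf2 it was -0.16, with an interval from -0.36 to 0.05. Tnfrsf17 was called without penicillin replicate 2 (-0.50) or without control replicate 3 (-0.47), whereas it was at -0.25 without control replicate 2, -0.28 without penicillin replicate 3 and -0.083 with array quality weights, not called. Pim2 was not called without penicillin replicate 2 (0.26), penicillin replicate 4 (0.24), control replicate 1 (0.28) or control replicate 3 (0.27). The intervals of Derl3 and Prdm1 also held 0. With array quality weights 6 genes were called, Eaf2 being added as lower than Pigr (-0.18, limma adjusted p = 0.0177), where 0.762% of genes were called lower than Pigr and 82.2% higher. All these tests share the 7 values of Pigr, so an error in them would move every gene together, and with so many genes called the adjustment is mild: the unadjusted p of Jchain was 0.00114 in limma. Irf4 was no longer called with the mean of probe sets (-0.19, limma adjusted p = 0.161), nor without control replicate 3 and penicillin replicate 3 together (-0.34, limma adjusted p = 0.0739).

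**Figure D2:**
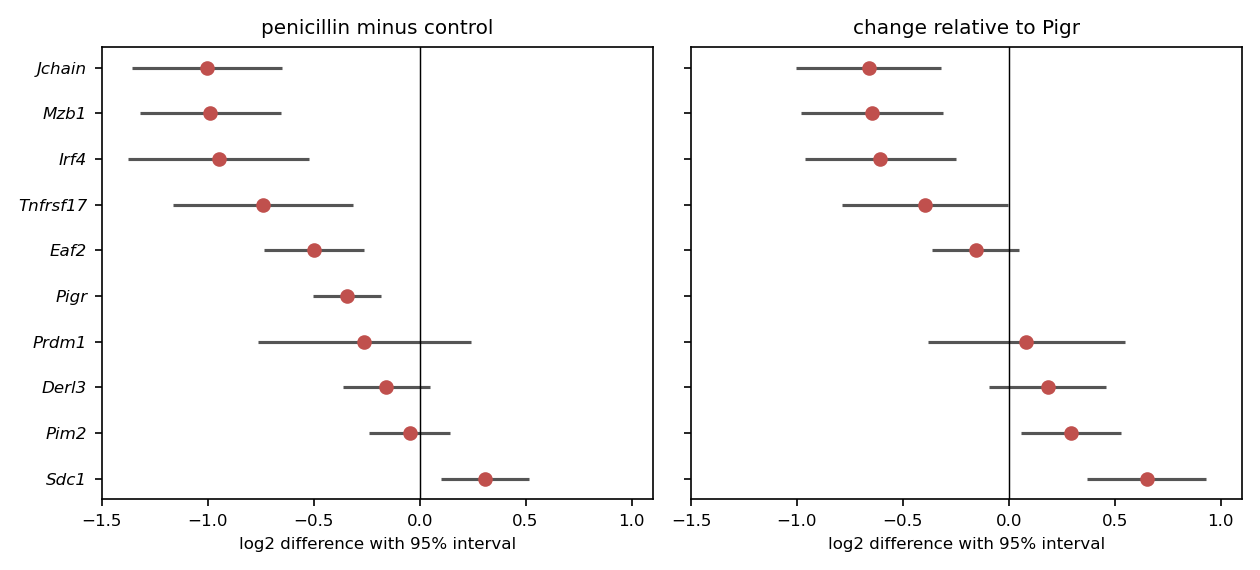
Left, log2 difference of each gene between penicillin and control mice (n = 4 and 3); right, the same after subtracting the Pigr value of each array, so that 0 means a change equal to that of Pigr. Points are estimates of limma and lines their 95% intervals; Jchain, Mzb1 and Irf4 lie below 0 on both sides, at -1.004, -0.99 and -0.95 on the left and -0.66, -0.65 and -0.61 on the right.

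Leukocyte genes at large also had lower values. Ptprc, which encodes the common leukocyte antigen CD45, was at 8.73, 8.86, 8.54 and 8.73 in penicillin mice, against 9.21, 9.06 and 9.20 in control mice, a difference of -0.44 ± 0.08 (SE; limma adjusted p = 0.142). Of 8 pan-leukocyte markers 7 had lower values, with a median of -0.43 over the 8 (-0.36 without control replicate 3), and their summed level was 11.16 to 11.41 in penicillin mice and 11.52 to 11.67 in control mice. With the Ptprc value of the same array subtracted, again chosen after seeing the data, Jchain differed by -0.56 ± 0.12, Mzb1 by -0.55 ± 0.13 and Irf4 by -0.51 ± 0.13 (SE; limma adjusted p = 0.00325, 0.00371 and 0.00480). In this fit 0.41% of genes were called lower than Ptprc and 87.3% higher. Eaf2, at -0.06, and Tnfrsf17, at -0.30, were not called lower than Ptprc (95% intervals -0.34 to 0.22 and -0.61 to 0.02). Sdc1, at 0.75 ± 0.13, and Pim2, at 0.39 ± 0.11, were called higher than Ptprc (SE; limma adjusted p = 0.00301 and 0.00520). Tnfrsf17 was called lower in 6 alternatives, among them without penicillin replicate 2 (-0.37), penicillin replicate 4 (-0.35) or control replicate 3 (-0.38), at a limma adjusted p of 0.0239 to 0.0495, and was at -0.14 without control replicate 2. Prdm1 was at 0.18, and at 0.47 without control replicate 2, where limma called it higher (adjusted p = 0.0110). Derl3 was at 0.28, and was called higher without penicillin replicate 2 (0.39) or control replicate 2 (0.38) and with array quality weights (0.39). These calls share the values of Ptprc as the calls above share those of Pigr.

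Single mice did not rank alike in all the genes. Within the penicillin group, replicate 3 was the lowest mouse for Jchain, Mzb1, Irf4, Tnfrsf17 and Pim2, at -1.41, -1.35, -1.33 and -1.11 from the control mean for the first 4 of these. It was also the lowest for Ptprc, at -0.61 from the control mean. For Pigr and Eaf2 the lowest mouse was replicate 4, at -0.48 and -0.75 from the control mean. Over the 7 arrays, which include the difference between the groups, Jchain correlated with Mzb1 at r = 0.98, with Irf4 at 0.95 and with Tnfrsf17 at 0.94, and with Pigr at 0.82, whereas Pigr correlated with Eaf2 at 0.98. Among 2306 genes that varied at least as much as Pigr, the genes most like Jchain by Pearson r over the 7 arrays were P2ry10, Arhgap15, P2rx7, Tiam1 and Acap1, with r from 0.988 to 0.991. Those most like Pigr were Eaf2, Adcy7, Slc9a3, Mal and Stc1, with r from 0.951 to 0.984. These correlations rest on 7 points split into groups and are descriptions.

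**Figure D3:**
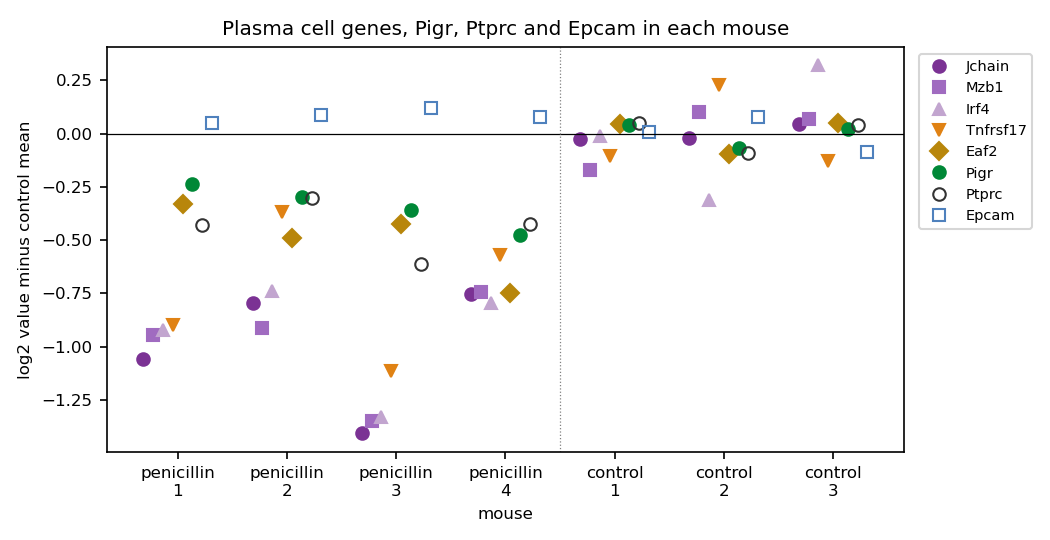
Log2 value of 8 genes in each mouse minus the mean of the control mice, penicillin mice to the left of the dotted line and control mice to the right. Filled symbols are plasma cell genes and Pigr, open symbols Ptprc and Epcam; in penicillin replicate 3 Jchain, Mzb1 and Irf4 lie at -1.41, -1.35 and -1.33, Pigr at -0.36 and Epcam at 0.12.

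The promoters of 3 genes are printed to show the sequences behind the plasma cell and the epithelial side: Jchain and Tnfrsf17, which had lower values together, and Pigr. Each is the RefSeq window of 300 bases on GRCm38.p6, from 250 before the start site to 50 from it on, given 5′ to 3′ on the gene's strand. Such windows were used for 9 of the 10 genes, with 11 windows in all, and Mzb1 is the gene without any. Windows of the set on a certain chromosome were left out by choice, whereas the shares over all windows had no such exclusion. The counts of genes with a motif thus do not cover Mzb1. Capitals mark motifs searched on both strands: the box TATAAA, the core GAGGAA bound by PU.1, the element bound by interferon regulatory factors (GAAA, any 2 bases, GAAA), the E-box CACGTG bound by USF and the octamer ATGCAAAT.
Jchain, chr5:88527848-88528147, minus strand: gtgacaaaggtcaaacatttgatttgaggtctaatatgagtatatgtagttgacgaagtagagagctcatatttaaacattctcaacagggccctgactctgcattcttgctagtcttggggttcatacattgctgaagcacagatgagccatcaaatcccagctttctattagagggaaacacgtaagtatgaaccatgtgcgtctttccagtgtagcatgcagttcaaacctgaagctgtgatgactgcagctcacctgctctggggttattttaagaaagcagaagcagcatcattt
Tnfrsf17, chr16:11313559-11313858, plus strand: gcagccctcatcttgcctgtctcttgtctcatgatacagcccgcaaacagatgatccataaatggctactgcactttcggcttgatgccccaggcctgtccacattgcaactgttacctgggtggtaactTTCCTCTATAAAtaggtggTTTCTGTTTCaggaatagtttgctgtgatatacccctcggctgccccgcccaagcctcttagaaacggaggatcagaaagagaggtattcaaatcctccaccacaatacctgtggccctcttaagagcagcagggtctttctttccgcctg
Pigr, chr1:130826434-130826733, plus strand: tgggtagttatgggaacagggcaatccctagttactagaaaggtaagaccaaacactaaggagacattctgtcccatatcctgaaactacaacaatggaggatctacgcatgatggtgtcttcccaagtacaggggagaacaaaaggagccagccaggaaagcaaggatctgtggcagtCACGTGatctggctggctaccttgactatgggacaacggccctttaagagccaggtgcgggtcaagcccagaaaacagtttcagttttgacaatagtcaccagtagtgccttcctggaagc
In the Pigr window the E-box begins 71 bases before the start site; USF factors are known to act on human PIGR through an E-box in its promoter. The E-box was found in 2 of the 9 genes, Pigr and Derl3, and in 7.15% of 32851 windows. The Tnfrsf17 window holds the interferon regulatory factor element on the opposite strand beginning 101 bases before the start, alongside a TATAAA match and, on the opposite strand, a GAGGAA match; the interferon regulatory factor element was found in 1 of the 9 genes and in 3.44% of all windows. The GAGGAA core was found in 7 of the 9 genes and in 28.3% of windows, TATAAA in 3 genes and 13.6% of windows, and the octamer in Pim2 alone and in 1.74% of windows. The Jchain window held none of the 5. Genes of the set were counted if any of their windows held a match, whereas the shares are of single windows, so these are unlike units. Eaf2 has several windows and holds GAGGAA and TATAAA in different ones. A match is a description of letters, and no binding was measured.

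Other genes of the antibody secretion programme had a median difference nearer 0. Of 20 listed genes 17 were tested, and 14 of these had lower values, where 54.7% of all genes did. The median difference was -0.13, against -0.01 over all genes, and none was called in limma over all genes. The groups lay apart in 3 with lower values and 1 with higher, against 6.05% and 4.29% of all genes; without control replicate 3 they lay apart in 7 with lower values and 1 with higher, against 11.2% and 8.74% of all genes. Tnfrsf13b, which encodes TACI, the other receptor for APRIL and BAFF on B cells and plasma cells, was at 4.78, 4.94, 4.61 and 4.83 in penicillin mice and 5.28, 5.44 and 5.36 in control mice. Its difference was -0.57 ± 0.08 (SE; limma adjusted p = 0.0862), on values low on the scale, with a mean at percentile 7.4 of the genes tested. Selenos, a selenoprotein of endoplasmic reticulum degradation, differed by -0.19 ± 0.06 (SE). Xbp1, the transcription factor of the secretory programme, which Paneth and goblet cells also express, was at 12.93 ± 0.05 in penicillin mice and 12.97 ± 0.05 in control mice (SD, n = 4 and 3), a difference of -0.04 with a 95% interval of -0.17 to 0.08. Ell2, the elongation factor that favours the secreted form of immunoglobulin mRNA, ran the other way, at 0.32 ± 0.08 (SE, limma adjusted p = 0.290). Selenos, Xbp1 and Ell2 had means at percentiles 94.6, 98.8 and 88.7 of the genes tested. These are whole-tissue values, and the part of plasma cells in the values of this list was not tested.

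Genes that induce IgA or guide plasma cells to the gut had both signs. Of 24 listed genes 15 were tested, with 8 lower and 7 higher, a median of -0.03 and none called. At an unadjusted p under 0.05 in limma 5 were lower and 0 higher, against 6.35% and 4.37% of all genes. The groups lay apart in 4 with lower values and 0 with higher, against 6.05% and 4.29% of all genes. Ccl28, the epithelial chemokine that attracts IgA plasma cells, was at 9.42, 9.49, 9.05 and 9.25 in penicillin mice and at 9.80, 9.75 and 9.84 in control mice. The groups lay apart, with a difference of -0.50 ± 0.10 (SE; limma adjusted p = 0.175). Without control replicate 3, 7 of the list had lower values. The groups then lay apart in 5 with lower values and 1 with higher, against 11.2% and 8.74% of all genes. Ccr9, the receptor for the small intestinal chemokine Ccl25, and Itga4, a chain of the gut homing integrin, differed by -0.47 ± 0.11 and -0.27 ± 0.08 (SE). Tnfsf13b, which encodes BAFF, differed by -0.38 ± 0.13 (SE), with overlapping groups, and Tnfsf13, which encodes APRIL, is not analysed here.

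Among 18 listed regulators of Pigr 15 were tested, 8 of them lower and 7 higher, with a median of -0.02 and none called. The groups lay apart in 3 with lower values and 1 with higher, against 6.05% and 4.29% of all genes. Irf1, a transcription factor through which interferon gamma raises human PIGR, was at 10.29, 10.71, 10.47 and 10.32 in penicillin mice, against 10.99, 11.03 and 10.85 in control mice. Its difference was -0.51 ± 0.11 (SE; limma adjusted p = 0.175). Tlr4, the receptor for bacterial lipopolysaccharide, differed by -0.52 ± 0.14 and Ifngr1, a chain of the interferon gamma receptor, by 0.14 ± 0.06 (SE). Usf1 and Usf2 are in this list too, and their groups overlapped. Without control replicate 3 the list had 13 of 15 genes lower and a median of -0.10, where 7041 of all 13644 genes were lower. The groups then lay apart in 6 with lower values and 1 with higher, against 11.2% and 8.74% of all genes.

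Markers of other lymphocytes were set beside these genes, since Irf4, Eaf2, Prdm1 and Pim2 are not limited to plasma cells. Of 12 B cell markers 7 were tested, with 5 lower and a median of -0.10 (-0.15 without control replicate 3); Ms4a1, Cd79a, Cr2 and Fcer2a lay under the filter. Cd79b, a chain of the B cell receptor that plasma cells keep at a low level, differed by -0.74 ± 0.19 (SE; limma adjusted p = 0.302), whereas Blk and Bank1 differed by 0.11 and -0.17. Blk and Bank1 had means at percentiles 1.6 and 7.6 of the genes tested, near the filter, so their differences and their part in the sum say little. The summed level of the B cell markers was 8.05 to 8.32 in penicillin mice and 8.31 to 8.43 in control mice, with the highest penicillin mouse within the control range. Of 10 T cell markers 5 were tested, all with lower values and a median of -0.21, though Cd4 differed by only -0.0009. The groups lay apart in 2 of the 5, Cd3g and Cd3d, chains of the T cell receptor complex, against 6.05% of all genes. These differed by -1.29 ± 0.22 and -0.59 ± 0.12 (SE; limma adjusted p = 0.108 and 0.178). Without control replicate 3, 4 of the 5 had lower values and the median was -0.16. The summed level of the 5 T cell markers was 8.33 to 8.63 in penicillin mice and 8.87 to 9.09 in control mice. All 7 smooth muscle markers had lower values, with a median of -0.15 (-0.21 without control replicate 3), and their summed level overlapped, at 14.04 to 14.51 in penicillin mice and 14.39 to 14.61 in control mice. The part of these cells in the differences of Jchain, Mzb1 and the other genes was not tested.

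**Figure D4:**
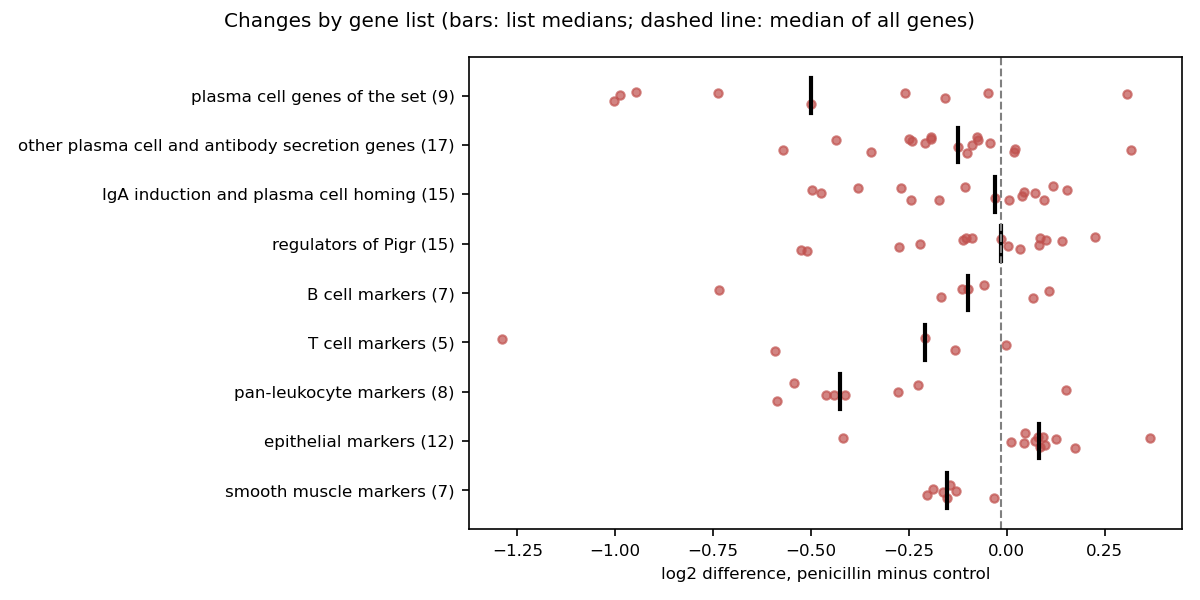
Log2 differences between penicillin and control mice for each tested gene of 9 lists, with the number of genes in brackets. Points are genes, black bars list medians and the dashed line the median of all genes, at -0.01; the 9 plasma cell genes have a median of -0.50, the pan-leukocyte markers -0.43 and the epithelial markers 0.08.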

How the data were processed

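RNA from the terminal ileum of 7 mice was measured on Affymetrix mouse arrays. The authors deposited 1 log2 value for each probe set and array, and the submitters' processing notes name RMA and affy; RMA corrects background, brings the arrays to a common distribution and summarises the probes of a set. Their versions are not stated in these sources. RMA values carry no detection call, and the number of arrays limits the precision. Of 45101 probe sets, 34945 named a single gene in the platform annotation, and 34741 of these matched the RefSeq table by gene ID; 932 that name several genes were not used.

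Each gene was represented by its probe set with the highest mean. Genes with a mean at or under the 25th percentile (4.588) were left out, which left 13644. Penicillin was compared with control by limma 3.58.1 in R 4.3.3 (lmFit, eBayes without trend, two-sided), with Benjamini-Hochberg adjustment over all genes, and again after subtracting Pigr from each array. The procedure was tested on simulated data. The set of genes, the lists, the promoter motifs and the tests were chosen with earlier results of these data known, so they are not independent of them. By rule the text may name the 10 genes, up to 3 genes of each list by the smallest p, and Xbp1, Tnfsf13, Tnfsf13b, Epcam and Ptprc. The rule also allows the 5 genes most like Jchain and Pigr, immunoglobulin chains left out. Not every gene it allows is named: some or all are left out for the epithelial, pan-leukocyte, smooth muscle, terminal ileum and colon lists. Car1, Fabp6, Usf1, Usf2, Ms4a1, Cd79a, Cr2, Fcer2a and Cd4, with Alb, Serpina1c and Cyp2e1, were named after their values were seen. So was Slc10a2, which the rule also allows. Same-numbered mice of the groups did not deviate together (r = -0.16, 0.003 and -0.42), so the replicate numbers were not taken as pairs. Figures used matplotlib 3.10.9.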

Additional observations from a re-analysis of the deposited data

How the results depend on the processing

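No gene of the set was called between penicillin and control mice in limma with quantile normalisation again, array medians centred, either change of the filter, averaged or single probe sets, a trend and robust prior, the replicate number as a block, or any array left out. Array quality weights gave control replicate 3 the lowest weight (0.249) and control replicate 1 the highest (4.54), with 0.464 for control replicate 2. The control side of that fit thus rested mainly on control replicate 1. With these weights 5 of the 10 were called (Jchain, Mzb1, Pigr, Irf4 and Eaf2, limma adjusted p 0.0169 to 0.0210), all lower, where 3.58% of genes were called lower. At an adjusted p under 0.1, 2 were lower, Jchain and Mzb1, at 0.0891 and 0.0862 in limma. The share of all genes called at that threshold is not given here, so this count has no background to be read against. Over all alternatives the difference of Jchain lay between -1.09 and -0.85, that of Mzb1 between -1.07 and -0.81 and that of Pigr between -0.38 and -0.30.

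Relative to Pigr, 5 genes were called, 4 to 5 with an array left out and 6 with array quality weights. With the filter at the 50th percentile 3 of the 5 genes still tested were called, and 3 without control replicate 3 and penicillin replicate 3. With the replicate block, which leaves penicillin replicate 4 without a partner, 0 were called in limma: Jchain (-0.79), Mzb1 (-0.77), Sdc1 (0.56) and Tnfrsf17 (-0.50) had an adjusted p of 0.0572, Irf4 (-0.70) one of 0.0624 and Pim2 (0.24) one of 0.0669, and 7820 genes had an unadjusted p under 0.05. Pim2 was not called relative to Pigr without penicillin replicate 2, penicillin replicate 4, control replicate 1 or control replicate 3 (0.26, 0.24, 0.28 and 0.27, adjusted p 0.0651 to 0.0955). Tnfrsf17 was called lower than Pigr without penicillin replicate 2 (-0.50), without control replicate 3 (-0.47), with averaged probe sets (-0.36) and with every probe set tested (-0.40). Signs turned for Pim2 without penicillin replicate 3 (0.018, in a leave-one-out range from -0.10) and without that mouse and control replicate 3 (0.002), and for Prdm1 relative to Pigr without penicillin replicate 3 (-0.017), control replicate 1 (-0.033), control replicate 3 (-0.084, in a leave-one-out range up to 0.36) and without control replicate 3 and penicillin replicate 3 (-0.18). Relative to Ptprc they turned for Prdm1 with averaged probe sets (-0.022) and without control replicate 3 and penicillin replicate 3 (-0.14, against a highest leave-one-out value of 0.47), and for Eaf2 with the replicate block (0.031) and without penicillin replicate 4 (0.031). Causes of these changes were not tested.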
